A study of Mus musculus with 18 samples.

Results

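Plasminogen activation and the serpins were examined in cultured mammary fibroblasts through 8 genes of the deposited count table, chosen by symbol. These were Plau, Plaur, Plat, Serpine2, Serpinb2, Serpinf1, Serpina3n and Serpina3g, out of 55486 genes in the table, and all 8 were among the 14273 genes with enough counts to be tested. The cells were normal fibroblasts (NFs) from mammary glands of female FVB/n mice, sorted as CD26- or CD26+ after removal of epithelial, endothelial and immune cells, and each sort pooled the glands of several mice. NFs were kept for 7 days in control medium or in conditioned medium (CM) of tumour cell lines. These lines were derived from tumours of WEPtn mice, which model invasive lobular carcinoma. The 4 groups were CD26- NFs in control medium (n = 3), CD26- NFs in tumour CM (n = 6), CD26+ NFs in control medium (n = 3) and CD26+ NFs in tumour CM (n = 6). Each of the 6 lines, 13-MCB-17, 10-SJK-221, 18-MCB-12, 13-MCB-44, 13-MCB-90 and 13-MCB-138, supplied CM to 1 library of each cell type. The labels do not say that the libraries of a group came from separate cultures or animals, so p-values measure the spread between these libraries, which may in part be technical.

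Plasminogen is a circulating zymogen that urokinase (Plau) and tissue-type plasminogen activator (Plat) cleave to plasmin, a protease of fibrin and of the pericellular matrix. Urokinase acts at the cell surface when bound to its receptor (Plaur). The activators are held in check by inhibitors of the serpin family, among them PAI-2 (Serpinb2) and protease nexin-1 (Serpine2), while other serpins such as pigment epithelium-derived factor (Serpinf1) inhibit no protease. Stromal fibroblasts are known producers of urokinase in breast tumours. Plg, the gene of plasminogen itself, had at most 2 counts in any library.

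Total counts per library ran from 9725723 to 14585349. In bulk libraries, fewer cells of a type and less RNA per cell cannot be told apart. Dpp4, which encodes CD26, had at most 2 counts in the CD26- control libraries and at most 1 in the CD26+ control libraries, with 1 to 11 counts in the CD26- CM libraries and between 8 and 104 counts in the CD26+ CM libraries, so the sorting marker was near 0 at the RNA level in control medium. All 8 fibroblast markers examined (such as Col1a1, Pdgfra and Dcn) were detected, with summed levels of 14899 to 16642 CPM (counts scaled to 1000000 per library) in CD26- control libraries and 60193 to 77001 CPM in CD26+ control libraries. In tumour CM the fibroblast sums were 8056 to 19798 CPM in CD26- and 27313 to 50319 CPM in CD26+ libraries, but the markers did not move in the same direction. In CD26+ NFs, CM raised 3 of the 8 fibroblast markers (Dcn by 3.19, Lum by 1.62 and Pdgfra by 1.06 on the log2 scale) and lowered 3 (Col3a1 at -1.82, Col1a1 at -0.86 and Col1a2 at -0.68), with a median log2 change of 0.10. The shares of all tested genes were 15.2% and 13.4%. In CD26- NFs, CM raised 4 and lowered 1, against 7.88% and 7.28%. The part of these markers in the CM results was not tested. The 11 epithelial markers (such as Krt5, Krt14 and Epcam) were also detected. Their sum was 4228 to 4681 CPM in CD26- control libraries and 691 to 1248 CPM in CD26+ control libraries, and in tumour CM it was 2689.8 to 4393 CPM against 632 to 1521 CPM. No epithelial marker was at 0 in any group, and 9 of 11 were lower in CD26+ NFs in each medium, against 25.4% of all genes in control medium and 29.3% in tumour CM. The 8 immune markers summed to between 13.9 and 27.7 CPM. Most of this was Csf1r, at 17.5 to 21.7 CPM in group means, and in each group 5 or 6 of the 8 had at most 3 counts in any library. The 6 endothelial markers summed to 6.1 to 6.7 CPM in CD26- control, 6 to 12 CPM in CD26- CM, 5.33 to 5.42 CPM in CD26+ control and 5.46 to 8.4 CPM in CD26+ CM libraries, and 4 of them were tested. CM raised Cdh5 (log2 change 1.22, edgeR FDR 0.0121) and Egfl7 (0.85, edgeR FDR 0.0223) in CD26- NFs, where FDR is the Benjamini-Hochberg adjusted p of edgeR's quasi-likelihood test over all tested genes. In CD26+ NFs it raised Egfl7 (0.60, edgeR FDR 0.0423), while Cdh5 had 1.24 (edgeR FDR 0.0544), and the part of these markers in the CM results was not tested. CD26+ CM replicate 18, given CM of 13-MCB-138, stood apart: over the 500 most variable genes its median correlation was 0.890 with its own group and 0.920 with the CD26+ control libraries. The CD26- library given the same CM, replicate 9, had the lowest own-group value among CD26- CM libraries, 0.921, against 0.909 with the CD26- control libraries. The part of the line in this was not tested. Leaving out replicate 18 alone keeps 13-MCB-138 in the CD26- group only, so the difference in CM effect then compares unlike sets of lines. Values without replicate 18 are given beside the log2 changes of the 8 genes that use the CD26+ CM group and beside the line effects called. They are not given for the correlations across lines, which need all 6. For other gene lists, the CM counts in CD26+ NFs and changed calls on the difference in CM effect are given without replicate 18, and for those lists this setting was chosen after seeing the data.

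The levels of the members are shown by library, in CPM scaled by the trimmed mean of M-values.

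**Figure D1:**
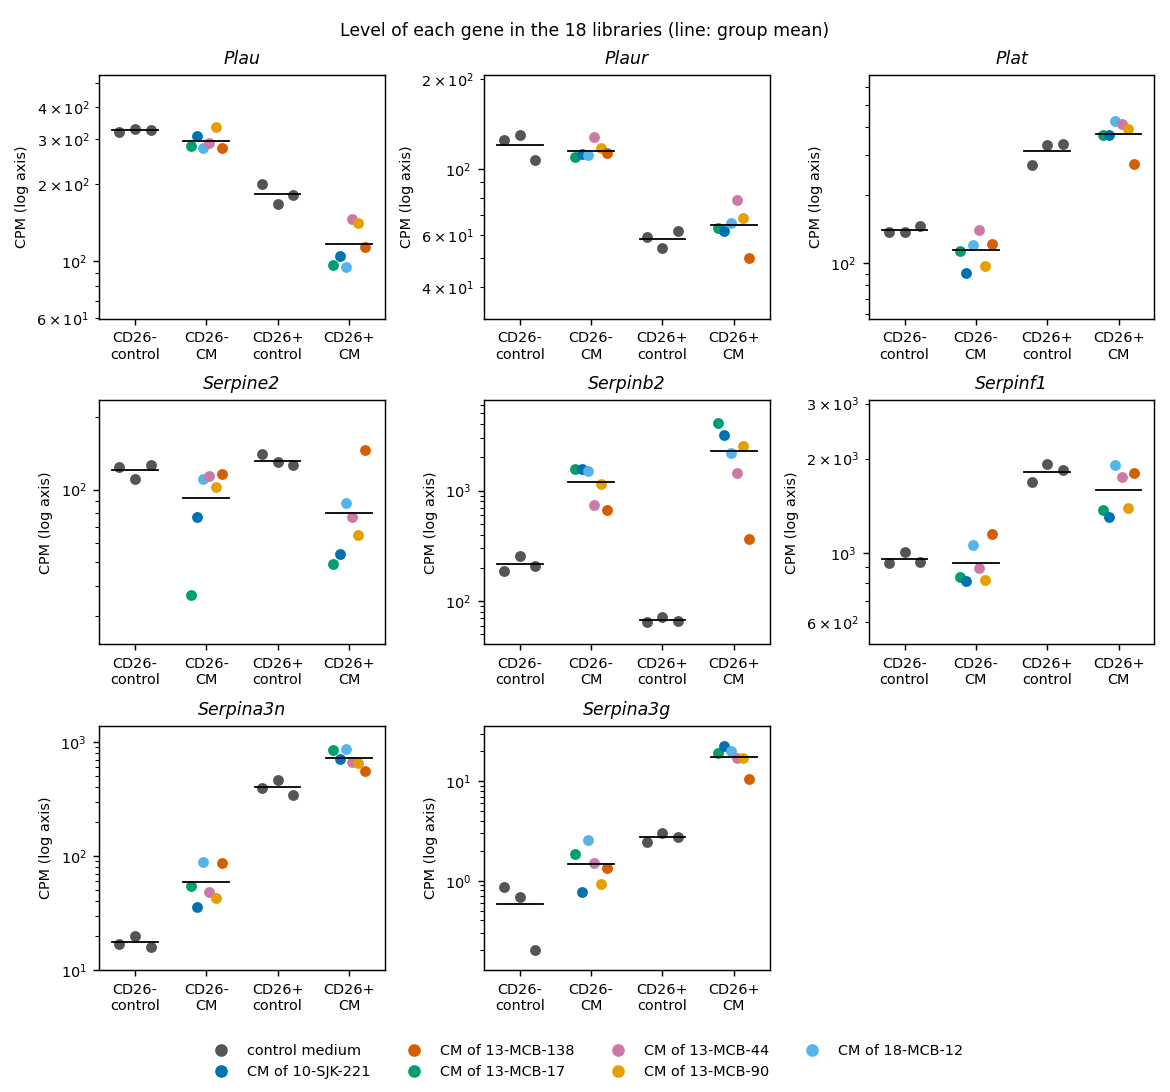
Level of the 8 genes in each of 18 libraries, in CPM on a log axis, by cell type and medium. Points are libraries coloured by the tumour line that gave the CM, and bars are group means. Serpinb2 spans 64.8 to 4109.8 CPM, while Plaur spans 50.1 to 129.8 CPM.

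The activators separated the 2 cell types in opposite directions. Plau (ENSMUSG00000021822, chromosome 14, 20836660 to 20843385, GRCm38) had 320.4, 329 and 325 CPM in the CD26- control libraries and 201, 168 and 182 CPM in the CD26+ control libraries. The groups did not overlap, and Plau was lower in CD26+ NFs by a log2 change of -0.82 ± 0.14 (SE; edgeR FDR 7.36e-05). Plat (ENSMUSG00000031538, chromosome 8, 22757727 to 22782844) had 138, 138 and 146 CPM in the CD26- control libraries and 271, 333 and 336 CPM in the CD26+ control libraries. These groups did not overlap either, and Plat was higher in CD26+ NFs by a log2 change of 1.15 ± 0.15 (edgeR FDR 7.04e-06). The receptor gene followed Plau. Plaur (ENSMUSG00000046223, chromosome 7, 24462484 to 24475968) had 125, 129.8 and 107 CPM in CD26- and 58.8, 54 and 61.8 CPM in CD26+ control libraries, a log2 change of -1.05 ± 0.12 (edgeR FDR 1.1e-06).

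In tumour CM, Plau fell in CD26+ NFs and did not pass the test in CD26- NFs. CD26+ CM libraries had a lowest level of 95.1, a median of 109 and a highest level of 146 CPM, all below the CD26+ control libraries. The log2 change was -0.66 ± 0.12 (edgeR FDR 0.000417), and it was -0.66 without replicate 18. CD26- CM libraries had a lowest level of 276, a median of 285 and a highest level of 336 CPM, which overlapped their controls (log2 change -0.14 ± 0.12, edgeR FDR 0.445). The CM effects in the 2 cell types differed by -0.52 ± 0.17 on the log2 scale, which missed the threshold (edgeR FDR 0.0608) and passed it with the CM line as a block (-0.54 ± 0.12, edgeR FDR 0.00733) and without replicate 18 (-0.53, edgeR FDR 0.048), 16 (-0.61, edgeR FDR 0.0241) or 17 (-0.60, edgeR FDR 0.037).

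Plat showed a similar gap with the other sign. In CD26- NFs, the CM libraries had a lowest level of 91.2, a median of 118 and a highest level of 141 CPM (log2 change -0.30 ± 0.13, edgeR FDR 0.128). Without replicate 7, Plat fell there (-0.37, edgeR FDR 0.0468). In CD26+ NFs, the CM libraries had a lowest level of 276, a median of 381 and a highest level of 427 CPM (0.26 ± 0.13, edgeR FDR 0.153). Replicate 18 was the lowest of these, and without it Plat rose in CD26+ NFs by 0.32 (edgeR FDR 0.0295). The difference between the CM effects was 0.55 ± 0.18 (edgeR FDR 0.0706), against 0.56 ± 0.15 when the line was a block (edgeR FDR 0.0247) and 0.62 without replicate 18 (edgeR FDR 0.0105) or replicate 7 (edgeR FDR 0.0336). Between the cell types in tumour CM, Plau stayed lower in CD26+ NFs (-1.35 ± 0.10, edgeR FDR 5.62e-09) and Plat higher (1.71 ± 0.11, edgeR FDR 1.62e-09). Plaur was lower there by -0.83 ± 0.08 (edgeR FDR 1.48e-07). Without replicate 18 these log2 changes were -1.34 for Plau, 1.78 for Plat and -0.77 for Plaur. With CM, Plaur passed the test in neither cell type, with log2 changes of -0.06 ± 0.10 (edgeR FDR 0.707) in CD26- NFs and 0.15 ± 0.10 (edgeR FDR 0.28) in CD26+ NFs, or 0.21 without replicate 18 (edgeR FDR 0.0641).

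Scaled to exon length, Plau stood above Plat in every library of 3 groups. The order in CD26+ control NFs depends on the lengths used, the union of all annotated exons (2367 bases for Plau and 6241 for Plat). In CPM without that scaling, Plat was already above Plau in every CD26+ control library (271 to 336 against 168 to 201 CPM). The group means of Plau and Plat were 137 and 22.6 CPM per kb in CD26- control NFs, 125 and 18.4 CPM per kb in CD26- CM NFs, and 77.7 and 50.2 CPM per kb in CD26+ control NFs. In CD26+ NFs in tumour CM, Plau stood at 49.0 and Plat at 59.9 CPM per kb, and Plat was above Plau in 5 of 6 libraries. Replicate 18 had the other order, with 48.2 CPM per kb of Plau and 44.2 of Plat. Replicates 16 and 17 were close, with 61.7 and 59.6 CPM per kb of Plau and 66.2 and 62.7 of Plat, and the order was not tested.

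Among the inhibitors of the activators, Serpinb2 moved most of the 8 genes with CM in both cell types. The gene (ENSMUSG00000062345, chromosome 1, 107511423 to 107535478) encodes PAI-2, a largely intracellular inhibitor of urokinase and tissue-type plasminogen activator. CD26- control libraries had 186, 255 and 206 CPM, and CD26- CM libraries had a lowest level of 673, a median of 1319 and a highest level of 1571 CPM. Every CM library lay above every control, and the log2 change was 2.47 ± 0.52 (edgeR FDR 0.00461). CD26+ control libraries had 64.8, 71.9 and 66.7 CPM, and CD26+ CM libraries had a lowest level of 363, a median of 2359.8 and a highest level of 4109.8 CPM. Again the groups did not overlap, and the log2 change was 5.08 ± 0.61 (edgeR FDR 1.2e-05), a 33.9-fold rise. The lowest value belonged to replicate 18, and without it the log2 change was 5.30 (edgeR FDR 3.2e-08).

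The order of the cell types for Serpinb2 changed with the medium. In control medium Serpinb2 was lower in CD26+ NFs, by a log2 change of -1.67 ± 0.55 (edgeR FDR 0.0172, and 0.0501 without control replicate 10). In tumour CM it was higher in CD26+ NFs, by 0.94 ± 0.37 (edgeR FDR 0.0378), although the libraries overlapped. That call was lost in 7 of the fits that left out 1 CM library, those without replicate 7, 8, 9, 13, 14, 15 or 17, with edgeR FDRs between 0.0522 and 0.116. Without replicate 18 the log2 change was 1.16 (edgeR FDR 0.000603). Blocking on the line gave 0.73 ± 0.21 (edgeR FDR 0.00757). The CM effect was larger in CD26+ NFs by 2.61 ± 0.67 (edgeR FDR 0.0248), or 2.39 ± 0.37 with the line as a block (edgeR FDR 0.00122) and 2.83 without replicate 18 (edgeR FDR 0.000368). Leaving out control replicate 2, 3, 10, 11 or 12 gave differences between 2.47 and 2.65 with edgeR FDRs between 0.0544 and 0.0728.

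Serpine2 (ENSMUSG00000026249, chromosome 1, 79794197 to 79861180), which encodes protease nexin-1, an inhibitor of thrombin and the plasminogen activators, differed mainly between CM libraries. Control libraries had 124, 110.1 and 126 CPM in CD26- NFs and 139.5, 129.7 and 126 CPM in CD26+ NFs (log2 change 0.13 ± 0.36, edgeR FDR 0.783). CD26- CM libraries had a lowest level of 36.7, a median of 106 and a highest level of 116 CPM, with -0.38 ± 0.31 against control (edgeR FDR 0.437). CD26+ CM libraries had a lowest level of 49.5, a median of 71.1 and a highest level of 146 CPM, with -0.72 ± 0.30 (edgeR FDR 0.083). The highest value was that of replicate 18, and without it the gene fell in CD26+ NFs (-0.99, edgeR FDR 0.00617). In tumour CM, Serpine2 differed by -0.21 ± 0.26 in CD26+ against CD26- NFs (edgeR FDR 0.493), and by -0.47 without replicate 18 (edgeR FDR 0.0748).

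**Figure D2:**
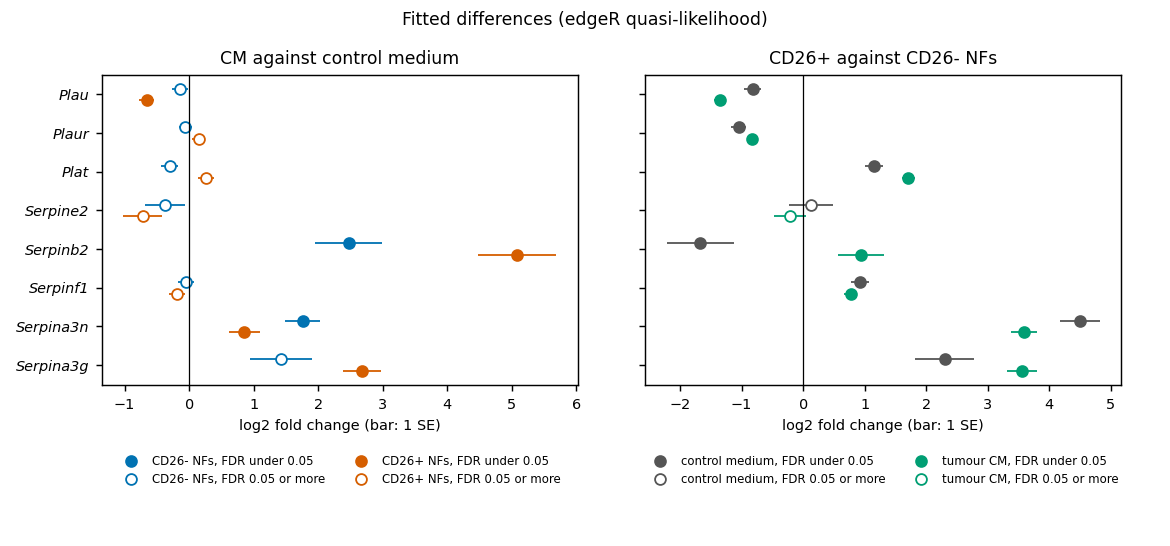
Fitted log2 changes with 1 SE for the 8 genes, on the left for CM against control medium in each cell type and on the right for CD26+ against CD26- NFs in each medium. Filled points have an edgeR FDR under 0.05. Serpinb2 has the largest CM effects of these genes (2.47 and 5.08), and Serpina3n the largest cell type differences (4.50 and 3.59). Without replicate 18 the difference in tumour CM was 3.65 for Serpina3n and 3.67 for Serpina3g.

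Serpinf1 (ENSMUSG00000000753, chromosome 11, 75409769 to 75422701), a secreted anti-angiogenic serpin, was the most abundant of the 8 genes per length in control medium, at 406 CPM per kb in CD26- and 769 CPM per kb in CD26+ NFs. It had 930.2, 1007 and 933 CPM in CD26- and 1685, 1921 and 1840.5 CPM in CD26+ control libraries, which did not overlap (log2 change 0.92 ± 0.15, edgeR FDR 6.24e-05). The difference in tumour CM was 0.77 ± 0.11 (edgeR FDR 6.75e-06). It passed the test for CM in neither cell type (-0.05 ± 0.13, edgeR FDR 0.851 in CD26- NFs and -0.19 ± 0.13, edgeR FDR 0.276 in CD26+ NFs). Without replicate 18, Serpinf1 had -0.24 for CM in CD26+ NFs (edgeR FDR 0.168). The difference of Serpinf1 in tumour CM was then 0.73.

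Serpina3n and Serpina3g belong to a cluster of mouse genes on chromosome 12 related to human alpha-1-antichymotrypsin. Serpina3n encodes a secreted acute-phase inhibitor of serine proteases, and Serpina3g an intracellular serpin that inhibits cysteine cathepsins. Serpina3n (ENSMUSG00000021091, 104406729 to 104414329) was higher in CD26+ NFs in both media. Control libraries had 16.8, 20.1 and 16 CPM in CD26- NFs and 393, 463 and 342 CPM in CD26+ NFs, a 22.7-fold difference (log2 change 4.50 ± 0.32, edgeR FDR 1.05e-08). In tumour CM the difference was 3.59 ± 0.21 (edgeR FDR 5.55e-10). CM raised Serpina3n in both. CD26- CM libraries had a lowest level of 35.9, a median of 51.5 and a highest level of 89.4 CPM (1.76 ± 0.27, edgeR FDR 0.000602). CD26+ CM libraries had a lowest level of 557, a median of 692 and a highest level of 865 CPM (0.85 ± 0.24, edgeR FDR 0.0125). All CM libraries exceeded all controls of their cell type, but the call in CD26+ NFs was lost without control replicate 12 (0.74, edgeR FDR 0.0704). The CM effects differed by -0.92 ± 0.35, which missed the threshold (edgeR FDR 0.106). Without replicate 18, Serpina3n had 0.90 for CM in CD26+ NFs (edgeR FDR 0.0061) and 3.65 for the cell types in tumour CM. The CM effects then differed by -0.86 (edgeR FDR 0.0992).

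Serpina3g (ENSMUSG00000041481, 104236245 to 104241939) was scarce in CD26- NFs, with 9, 8 and 3 counts in the control libraries. Its CM libraries there had 11 to 35 counts and a median of 1.41 CPM (log2 change 1.42 ± 0.48, edgeR FDR 0.0531), and the call was gained in the fits without replicate 5 or 8. CD26+ control libraries had 2.43, 3.04 and 2.75 CPM, and CD26+ CM libraries had a lowest level of 10.4, a median of 18.1 and a highest level of 22.4 CPM. The groups did not overlap, and the log2 change was 2.68 ± 0.29 (edgeR FDR 4.56e-06), or 2.79 without replicate 18. Between the cell types Serpina3g was higher in CD26+ NFs in control medium (2.30 ± 0.48, edgeR FDR 0.000697) and in tumour CM (3.56 ± 0.24, edgeR FDR 2.78e-09, or 3.67 without replicate 18). The CM effects in the 2 cell types differed by 1.26 ± 0.63 (edgeR FDR 0.222), or 1.36 without replicate 18 (edgeR FDR 0.101). Of all 65-base stretches of Serpina3g transcripts, 9.81% also occurred in other annotated genes (Serpina3h, Serpina3i and Serpina3f), against 2.35% for Serpina3n. Reads from such stretches fit more than 1 gene. How the counting treated them is not known here, and the share of counted reads was not measured. For Serpinb2 the shared part was 9.72%, all with Serpinb10, which had at most 10 counts in any library.

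RefSeq promoter windows of the GRCm38.p6 assembly were matched for 6 of the 8 genes. The 250 bases before the start are shown for the 3 genes that CM raised, 5′ to 3′ on the plus strand, with matches to any of the searched motifs in capitals. The motifs, searched on both strands, were AP-1 (TGA and TCA with any 1 base between them), STAT (TTCNNNGAA), SP1 (GGGCGG), the core promoter box TATAAA and the NF-kB consensus.
Serpinb2, chr1:107511173-107511422: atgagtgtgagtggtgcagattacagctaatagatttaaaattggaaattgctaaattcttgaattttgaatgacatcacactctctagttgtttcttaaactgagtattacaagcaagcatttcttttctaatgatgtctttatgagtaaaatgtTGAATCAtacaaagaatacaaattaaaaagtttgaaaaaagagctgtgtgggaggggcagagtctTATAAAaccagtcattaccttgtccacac
Serpina3g, chr12:104235897-104236146: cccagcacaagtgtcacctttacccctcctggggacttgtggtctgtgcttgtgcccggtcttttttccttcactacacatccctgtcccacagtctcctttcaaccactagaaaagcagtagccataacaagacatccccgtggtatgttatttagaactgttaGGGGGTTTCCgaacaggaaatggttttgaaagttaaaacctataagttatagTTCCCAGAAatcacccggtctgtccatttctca
Serpina3n, chr12:104406458-104406707: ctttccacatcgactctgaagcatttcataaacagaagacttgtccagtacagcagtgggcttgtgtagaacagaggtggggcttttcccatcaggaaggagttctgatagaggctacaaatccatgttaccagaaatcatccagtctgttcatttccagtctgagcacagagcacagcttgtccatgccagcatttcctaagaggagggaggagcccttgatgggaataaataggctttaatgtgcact
The Serpinb2 window shown, the first of 2 in RefSeq, held TGAATCA at -94 and TATAAA at -29 from the start. The second, chr1:107511260-107511509, overlaps it and held the same AP-1 and TATA matches, at -181 and -116 from its own start, and also a STAT match, TTCCAAGAA, at -77. This STAT match lay past the annotated gene start at 107511423, and 69 bases of this second window were annotated Serpinb2 exon. The Serpina3g window held an NF-kB consensus match at -85 and TTCCCAGAA at -33, and the Serpina3n window held none of the 5 motifs. Of 32851 promoter windows of this length, 6.75% held the AP-1 motif, 12.4% the TATA box, 3.90% the NF-kB consensus, 7.02% the STAT motif and 32.7% the SP1 motif. A match describes the letters only, and binding was not measured here.

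Calls among the 8 genes were counted beside those among all tested genes, which also passed more often between the cell types than between the media. In CD26- NFs, CM raised 2 of 8 (Serpinb2 and Serpina3n), where 7.88% of all tested genes were higher, and lowered 0, where 7.28% were lower. At an unadjusted edgeR p under 0.05, 3 were higher and 1 lower, and DESeq2 called 3 higher and 0 lower. In CD26+ NFs, CM raised 3 (Serpinb2, Serpina3g and Serpina3n), against 15.2% of all genes, and lowered 1 (Plau), against 13.4%. Without replicate 18 it raised 4, with Plat added, against 17.4%, and lowered 2, with Serpine2 added, against 17.5%. Between cell types in control medium, 4 of 8 were higher in CD26+ NFs (Serpina3n, Serpina3g, Plat and Serpinf1), against 25.0% of all genes, and 3 were lower (Plaur, Plau and Serpinb2), against 25.4%. In tumour CM, 5 were higher and 2 lower, and each direction held 29.3% of all genes. Without replicate 18 the counts of the 8 were also 5 and 2. The CM effects differed for 1 gene upward (Serpinb2), against 4.53% of all genes, and for 0 downward, against 3.01%. For that difference, 2 were higher and 2 lower at an unadjusted edgeR p under 0.05, and DESeq2 called 2 higher and 1 lower. Without replicate 18 edgeR called 2 upward (Serpinb2 and Plat), against 8.04%, and 1 downward (Plau), against 8.42%. The median log2 change of the 8 genes was -0.05 for CM in CD26- NFs, 0.20 for CM in CD26+ NFs and 0.53 for the cell types in control medium, where the medians of all genes were 0.005, -0.004 and 0.006. For the cell types in tumour CM it was 0.86, against 0 for all genes. Without replicate 18 the medians of the 8 genes were 0.27 for CM in CD26+ NFs and 0.95 for the cell types in tumour CM. The epithelial marker sums given above were lower in CD26+ NFs, as Plau and Plaur were, and the fibroblast marker sums were higher, as Plat, Serpinf1, Serpina3n and Serpina3g were. Of the tested immune markers 1 of 2, and of the endothelial markers 1 of 4, was lower in CD26+ NFs in each medium. The shares of all genes lower were 25.4% in control medium and 29.3% in tumour CM. The part of any of these marker lists in these differences was not tested. With CM, edgeR called 0 of 11 epithelial markers in CD26- NFs, where 1 was lower at an unadjusted p under 0.05 and 1 with DESeq2, and it called 1, lower, in CD26+ NFs.

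Levels also varied with the tumour line that supplied the CM. An edgeR test for any difference between lines, over the 12 CM libraries with cell type in the model, called 2 of 8 genes, Serpinf1 (edgeR FDR 0.0262) and Serpine2 (edgeR FDR 0.0386), where 6.28% of all genes were called. The count ran from 0 to 5 when single CM libraries were left out, and the share of all genes from 2.52% to 14.6%. Without replicate 18 the count was 4, with Serpinb2 and Serpina3n added, and 10.2% of all genes were called. Serpinf1 then had an edgeR FDR of 0.00974 and Serpine2 of 0.0249, while both calls were lost in the fits without replicate 4, 6, 8, 14, 15 or 17, that of Serpine2 also without 5, 7 or 16, and that of Serpinf1 also without 13. Serpine2 was lowest with CM of 13-MCB-17 in both cell types, at 36.7 and 49.5 CPM, and highest with CM of 13-MCB-138, at 116 and 146 CPM. Serpinf1 was likewise high with 13-MCB-138, at 1146 and 1801 CPM, and lowest with 10-SJK-221, at 814 and 1302 CPM. Serpinb2 was not called (edgeR FDR 0.0909). It was called without replicate 18 (edgeR FDR 0.00374) or replicate 9 (edgeR FDR 0.000384), the libraries given 13-MCB-138. DESeq2 (adjusted p = 0.0389) and a fit with no filter on low counts (edgeR FDR 2.66e-08) also called it. Serpinb2 ran the other way from Serpine2, highest with 13-MCB-17, at 1571 and 4109.8 CPM, and lowest with 13-MCB-138, at 673 and 363 CPM.

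Across the 6 lines, the level in CD26- NFs was correlated with that in CD26+ NFs for each of the 8 genes. By Pearson's r, 0 passed after adjustment over the 8, 2 had an unadjusted exact permutation p under 0.05, and by Spearman's rho 3 did. Serpinb2 had r = 0.86 (exact two-sided permutation p = 0.00972, adjusted p = 0.0778) and rho = 0.94 (exact p = 0.0167, adjusted p = 0.0667), and r was 0.46 over the 4 lines left without the 2 farthest from the median. Serpinf1 had r = 0.86 (exact p = 0.0208, adjusted p = 0.0833) and rho = 0.89 (exact p = 0.0333, adjusted p = 0.0889), with 0.95 over the 4 lines left. Serpine2 had r = 0.70 (exact p = 0.128, adjusted p = 0.341) and rho = 0.94 (exact p = 0.0167, adjusted p = 0.0667). The other 5 genes had r between -0.01 and 0.68. The highest of these was that of Plaur, which turned to -0.82 over its 4 lines left, and Serpina3g turned from -0.01 to 0.19. The smallest p that 6 lines can give is 0.00139 for r and 0.00278 for rho.

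**Figure D3:**
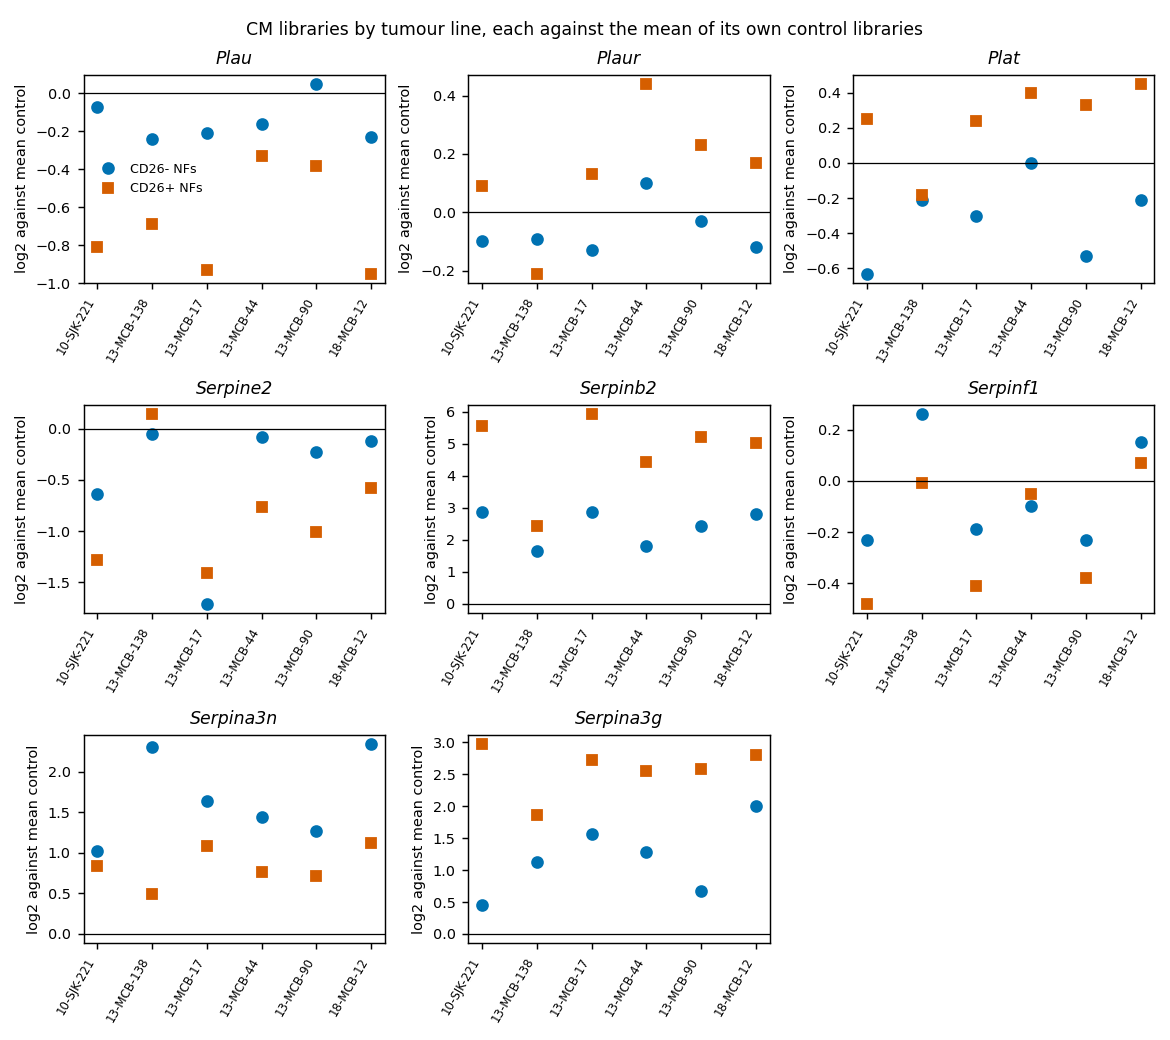
Log2 level of each gene in each CM library against the mean of the control libraries of the same cell type, by tumour line, for CD26- NFs (circles) and CD26+ NFs (squares). For Serpinb2 the 13-MCB-138 libraries are the lowest of both cell types, at 1.65 and 2.42, and the 13-MCB-17 libraries the highest, at 2.88 and 5.92.

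Outside the 8 genes, 63 other serpin genes were examined and 18 of them tested. In CD26- NFs 4 were higher and 0 lower with CM, against 7.88% and 7.28% of all genes, with a median log2 change of 0.20, where 6 were higher and 0 lower at an unadjusted edgeR p under 0.05 and DESeq2 called 4 and 0. In CD26+ NFs 10 were higher and 2 lower, against 15.2% and 13.4%, with a median of 1.01, so all genes also passed more often in CD26+ NFs. The effects themselves differed for 4 genes, all larger in CD26+ NFs, where 4.53% of all genes were larger and 3.01% smaller. Without replicate 18 the counts in CD26+ NFs were also 10 and 2, against 17.4% and 17.5% of all genes. The effects then differed for 5 genes, with Serpina3e-ps added, against 8.04% larger and 8.42% smaller. Neighbours of Serpina3g led these. Serpina3f had 9.02 ± 1.09 CPM (SD, n = 3) in CD26+ control and 43.1 ± 8.99 CPM (SD, n = 6) in CD26+ CM libraries (log2 change 2.26 ± 0.24, edgeR FDR 4.11e-06), and its CM effect was larger in CD26+ NFs by 1.66 ± 0.38 (edgeR FDR 0.0146). Serpina3h rose by 2.32 ± 0.33 and Serpina3i by 2.30 ± 0.31 in CD26+ NFs (edgeR FDR 7.31e-05 and 3.42e-05). Both were lower in CD26+ than in CD26- NFs in control medium, by -1.55 ± 0.36 and -1.40 ± 0.34 (edgeR FDR 0.00157 and 0.00228). In tumour CM both were higher in CD26+ NFs, by 0.69 ± 0.23 and 0.86 ± 0.21 (edgeR FDR 0.0172 and 0.00217). The sequences of these neighbours are also partly shared, with 14.6% of 65-base stretches of Serpina3h and 9.84% of Serpina3i found in other genes. Serpina3c had at most 3 counts in CD26- libraries, 5 to 10 in CD26+ control and 14 to 41 in CD26+ CM libraries. It passed the count filter only through the last group, so its change of 2.09 ± 0.33 in CD26+ NFs is a description. It is among the 10 counted as higher. Serpina3e-ps, annotated as a pseudogene by its name, rose by 1.27 ± 0.24 in CD26+ NFs.

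Serpinb8 rose in CD26+ NFs by 1.25 ± 0.26 (edgeR FDR 0.00171) and had -0.16 ± 0.25 in CD26- NFs (edgeR FDR 0.713). Its CM effect was called larger in CD26+ NFs (1.54 without replicate 18, edgeR FDR 0.00139). Other serpins rose in both cell types. Serping1, which encodes the C1 inhibitor of complement, had 208 ± 12.7 CPM (SD, n = 3) and 411 ± 112 CPM (SD, n = 6) in CD26- NFs without and with CM (log2 change 0.98 ± 0.21, edgeR FDR 0.00494). In CD26+ NFs it had 571 ± 57.3 and 1453 ± 303 CPM (1.35 ± 0.21, edgeR FDR 0.000157). Serpini1, neuroserpin, an inhibitor of tissue-type plasminogen activator, rose by 1.08 ± 0.21 in CD26- (edgeR FDR 0.00281) and 1.13 ± 0.23 in CD26+ NFs (edgeR FDR 0.00137) at levels of 2.11 to 7.06 CPM in group means.

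**Figure D4:**
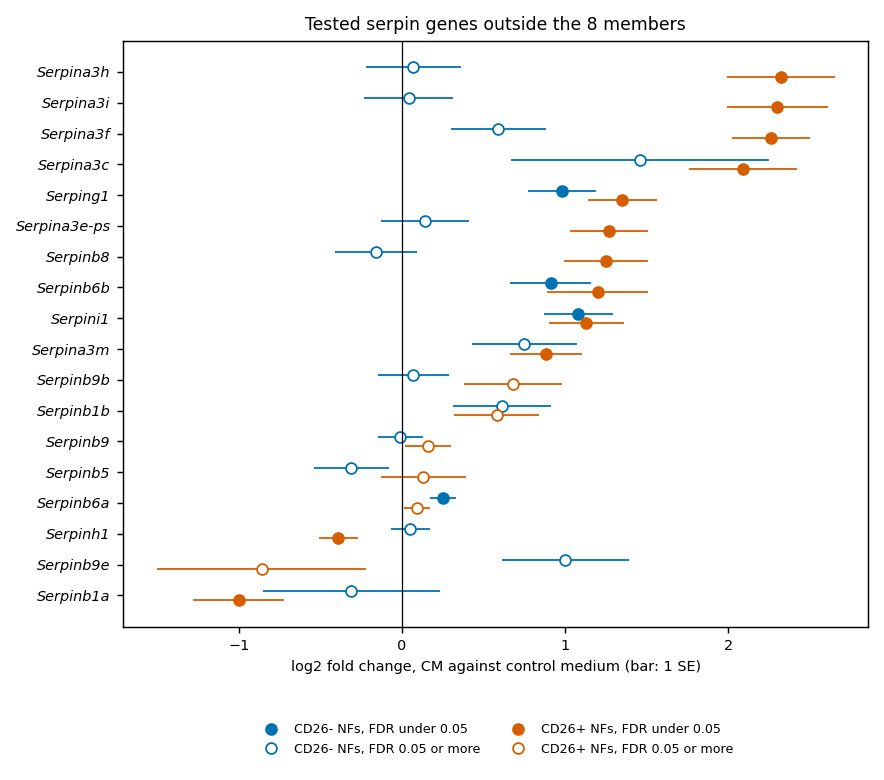
Log2 change with 1 SE for CM against control medium in CD26- and CD26+ NFs for the 18 tested serpin genes outside the 8, ordered by the value in CD26+ NFs. Filled points have an edgeR FDR under 0.05. Serpina3h, Serpina3i and Serpina3f lie at 2.32, 2.30 and 2.26 in CD26+ NFs and at 0.07, 0.04 and 0.59 in CD26- NFs.

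Of 26 plasminogen receptors and other partners, 18 were tested. With CM, 1 was higher and 3 lower in CD26- NFs, against 7.88% and 7.28% of all genes. CD26+ NFs had 4 higher and 1 lower with CM, against 15.2% and 13.4%. In control medium, CD26+ NFs had 4 of them higher and 9 lower, against 25.0% and 25.4%, with a median log2 change of -0.70. The lowest of these were Tmprss2 (-2.87), Spint1 (-2.36), St14 (-2.33) and Spint2 (-2.26), proteases and protease inhibitors known from epithelial cells, which are named here after their values were seen. The epithelial markers had a median of -2.13 in this comparison, with 9 of 11 lower, and their part in the partner counts was not tested. The integrin subunits Itgav and Itgb3, which pair as a vitronectin receptor, rose with CM in CD26+ NFs by 0.46 ± 0.08 (edgeR FDR 0.000345) and 0.89 ± 0.19 (edgeR FDR 0.00191). For Itgav the CM effect was larger in CD26+ NFs by 0.57 ± 0.11 (edgeR FDR 0.00602). It was the only partner called for the difference, 1 larger and 0 smaller, against 4.53% and 3.01% of all genes. Without replicate 18 the counts of partners for CM in CD26+ NFs were also 4 and 1, against 17.4% and 17.5%. The effects then also differed for Itgb3 (0.88, edgeR FDR 0.00992) and Igf2r (0.53, edgeR FDR 0.0287). That made 3 larger and 0 smaller, against 8.04% and 8.42% of all genes. Igf2r, a mannose 6-phosphate receptor that also binds plasminogen, rose in CD26+ NFs by 0.63 ± 0.12 (edgeR FDR 0.000867). Fap, fibroblast activation protein, a protease that cleaves antiplasmin, fell in both cell types, by 1.08 and 0.89 on the log2 scale (edgeR FDR 0.00558 and 0.00398), at 3.27 to 13.1 CPM in group means. Itgb1 fell by 0.31 in CD26- NFs (edgeR FDR 0.00791). Eno1 rose there by 0.29 ± 0.07 (edgeR FDR 0.0081), and had 0.04 ± 0.07 in CD26+ NFs (edgeR FDR 0.686).

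Coagulation genes were counted the same way, and 15 of 25 were tested. CM changed 2 upward and 2 downward in CD26- NFs, against 7.88% and 7.28% of all genes. It changed 5 upward and 3 downward in CD26+ NFs, against 15.2% and 13.4%, with the same counts without replicate 18, against 17.4% and 17.5%. Thbd (thrombomodulin, which turns thrombin to protein C activation) had 52.6 ± 7.76 CPM (SD, n = 3) in CD26+ control and 271 ± 67.8 CPM (SD, n = 6) in CD26+ CM libraries (log2 change 2.36 ± 0.22, edgeR FDR 9.78e-07). Its rise in CD26- NFs was 0.75 ± 0.20 (edgeR FDR 0.0168), and the effects differed by 1.62 ± 0.27 (edgeR FDR 0.00402). F3, tissue factor, the cell-surface trigger of coagulation, rose by 0.90 ± 0.16 in CD26- (edgeR FDR 0.00149) and 1.56 ± 0.16 in CD26+ NFs (edgeR FDR 3.41e-06), a difference that missed the threshold (edgeR FDR 0.0659) and passed it without replicate 18 (0.71, edgeR FDR 0.029). Procr, the protein C receptor, rose by 1.02 ± 0.16 in CD26+ NFs (edgeR FDR 0.000197) and had 0.07 ± 0.15 in CD26- NFs (edgeR FDR 0.809). The CM effects were called different for Thbd and Procr, 2 coagulation genes upward and 0 downward, against 4.53% and 3.01% of all genes. Without replicate 18 the difference for Procr was 1.04 (edgeR FDR 0.000422). Gas6, a ligand of TAM receptors, fell by 1.53 on the log2 scale in CD26+ NFs (edgeR FDR 0.00168), and without replicate 18 its CM effects differed between the cell types (-1.23, edgeR FDR 0.0365). In that fit the effects differed for 3 coagulation genes upward and 1 downward, against 8.04% and 8.42% of all genes.

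For each of the 8 genes, the 2 genes with the most similar log2 CPM over the 18 libraries were found among 11117 genes whose group mean reached 5 CPM in some group. Serpinb2 followed Pdpn (r = 0.995) and Lrig1 (r = 0.994). Serpina3n followed Lgi2 (r = 0.993) and Shc1 (r = 0.990), and Serpina3g followed Pcdhgc5 (r = 0.979) and Ctsa (r = 0.978). Plau was closest to Arl6ip1 (r = 0.974) and Epb41 (r = 0.972), Plaur to Ier3 (r = 0.988) and Tuba4a (r = 0.987), and Plat to Tril (r = 0.978) and Wipi1 (r = 0.976). Serpinf1 was closest to Ckap4 (r = 0.990) and Bgn (r = 0.988), and Serpine2 to Pde4b (r = 0.908) and Col11a1 (r = 0.907). These values describe the libraries, which share groups and lines, and carry no test.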

How the data were processed

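Polyadenylated RNA of 18 NF samples was sequenced single-end in stranded libraries. The authors deposited raw counts per Ensembl gene, without normalization. The submitters' processing notes name HISAT2 2.1.0, HTSeq and GRCm38, and the strand setting and annotation release were not given in the sources used here. Samples were grouped by their labels. Genes were filtered with filterByExpr, scaled with TMM and tested with edgeR 4.0.16 (quasi-likelihood F test, R 4.3.3) in a model of the 4 groups, with calls at an FDR under 0.05. CPM are counts scaled to 1000000 of the TMM-scaled library. The scripts were tested on simulated data. Libraries given the same CM line had correlated residuals in 6 of 6 lines (r from 0.247 to 0.406), so the line pairs them, and it served as a block in an alternative. Other alternatives were DESeq2 1.42.0, other scalings and filters, and leaving out each library. The members and gene lists were chosen with earlier results of these data known. From the lists the text names the genes with the smallest p for CM. Shared 65-base stretches and exon lengths came from GENCODE M21. The labels give no sequencing batch. Some items are not reported here and were left out of the lists.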

Additional observations from a re-analysis of the deposited data

Results flagged for a closer look

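In 16 groups of 6 CM libraries (8 genes in each cell type), 3 held a library whose gap to its nearest neighbour was large against the range of the group by Dixon's criterion on log2 CPM, and chance marks about 1 in 20 groups. Plat in CD26+ CM replicate 18 (13-MCB-138) had 276 CPM, the lowest of its group. Serpina3g in the same library had 10.4 CPM, also the lowest. Serpine2 in CD26- CM replicate 4 (13-MCB-17) had 36.7 CPM, the lowest of its group. The CM effect was larger in CD26+ than in CD26- NFs for Serpinb2, by 2.61 on the log2 scale (edgeR FDR 0.0248).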

How the results depend on the processing

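Of 40 results (8 genes in 5 contrasts), 30 kept their direction and their side of the threshold in every alternative run, 0 changed direction, 4 lost a call and 6 gained a call in at least 1 alternative. With a log2 limit of 2 beside the FDR, the called members were 1 for CM in CD26- NFs (against 0.904% of all tested genes), 2 for CM in CD26+ NFs (2.01%), 2 between cell types in control medium (5.97%) and 2 in tumour CM (4.16%). For the difference in CM effect, where 7.53% of all genes were called, 3 members were called with DESeq2 (12.9%) and 3 with the line as a replicate block (17.6%). Leaving out single libraries gave 0 to 3 for that difference (2.46% to 16.5% of all genes). The block changed no other call between the cell types in tumour CM. For the effect of the CM line, 7 were called with no filter on low counts (8.33% of 29724 genes, against 6.28% of 14273), and leaving out libraries gave 0 to 5 (2.52% to 14.6%). Line agreement changed sign for Serpina3g (0.08 on linear CPM and 0.19 without the 2 lines farthest from the median, against -0.01) and for Plaur (-0.82 without those lines, against 0.68). The causes were not tested. Serpinb2 in control medium lost its call without replicate 10 (edgeR FDR 0.0501), and in tumour CM with a fit of only those 2 groups (edgeR FDR 0.078). Serpina3g for CM in CD26- NFs passed with DESeq2 (adjusted p = 0.0113), with a mean of at least 5 CPM required in a group (edgeR FDR 0.0498), and without replicate 5 or 8 (edgeR FDR 0.0374 and 0.0489). It had 3 to 9 counts in its control libraries there, and the part of depth in the missed call was not tested.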
